A study of Mus musculus with 24 samples.

Results

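Cyclin-dependent kinase (CDK) inhibitors other than *Cdkn1a* were followed in dorsal telencephalon of *Cep135*-mutant and control mouse embryos. The 7 genes were chosen by symbol (*Cdkn1b*, *Cdkn1c*, *Cdkn2a*, *Cdkn2b*, *Cdkn2c*, *Cdkn2d* and *Cdkn3*), and all 7 were found among the 54658 genes of the table. Groups of 3 embryos each were *Cep135*(Δ8/Δ8), labelled Cep135 (-/-), or *Cep135*(+/+). The mutant line was made by CRISPR/Cas9 in zygotes, carries the deletion in the germline and was kept on C57BL/6J. Cortices were taken at E11.5 (mutants A, B and C, controls D, E and F) and at E14.5 (mutants 1, 2 and 6, controls 3, 4 and 5). Cells of the same 6 E14.5 embryos were also grown as incipient neurospheres for 12 h and 24 h, in medium with EGF and FGF2. That gave 24 libraries of 3′ ends, 1 per embryo and condition, with 4732781 to 11645213 reads on genes. For the cortex of mutant 6, one label gives E14.5 and another E11.5, and it was kept as E14.5. All E14.5 sample titles share 1 name prefix and the E11.5 titles carry others, and for mutants B and C 2 labels spell the prefix differently. What the prefix stands for is not given in the sources used here, and age and prefix cannot be told apart.

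CDK inhibitors are small proteins that bind CDKs or their cyclins and slow entry into the cell cycle. The Cip/Kip family, which holds *Cdkn1b* (p27Kip1), *Cdkn1c* (p57Kip2) and *Cdkn1a*, binds cyclin-CDK complexes broadly. The INK4 family, which holds *Cdkn2a*, *Cdkn2b*, *Cdkn2c* and *Cdkn2d*, binds CDK4 and CDK6 and keeps them from the D-type cyclins. *Cdkn3* encodes a phosphatase that removes the activating phosphate from CDKs. In the embryonic cortex, p27Kip1 and p57Kip2 are known for the exit of progenitors from the cycle, and *Cdkn1c* is an imprinted gene expressed from the maternal allele.

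In the order of these roles, the Cip/Kip genes lie on chromosome 6 (*Cdkn1b*, ENSMUSG00000003031, 134920401 to 134925513, plus strand) and chromosome 7 (*Cdkn1c*, ENSMUSG00000037664, 143458339 to 143461050, minus strand) of GRCm38. *Cdkn2a* (ENSMUSG00000044303, 89274471 to 89294653) and *Cdkn2b* (ENSMUSG00000073802, 89306299 to 89311039) are neighbours on the minus strand of chromosome 4. *Cdkn2c* (ENSMUSG00000028551, 109660876 to 109667189, minus strand) is on the same chromosome. *Cdkn2d* (ENSMUSG00000096472) spans 21288410 to 21291407 on the minus strand of chromosome 9. *Cdkn3* (ENSMUSG00000037628) spans 46760541 to 46771669 on the plus strand of chromosome 14. The GENCODE annotation holds 0 other genes on the same strand across any of the 7; an antisense gene, *Gm44732*, overlaps *Cdkn1c*, and reads were counted by strand. The 2 coding transcripts of *Cdkn2a*, known for p16Ink4a and p19Arf, start at different first exons and end within 70 bases of each other, so 3′ reads do not separate them.

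Promoters were taken from RefSeq, whose table (GRCm38.p6) holds 6 of the 7 genes. Those of *Cdkn1b* and *Cdkn3* are shown because these genes moved in opposite directions with age. Capitals mark matches on either strand to CCAAT, a box common in promoters, and to TTTGAA, the core of the cell cycle homology region of many genes expressed late in the cycle. Each is the 250 bases before the start, chr6:134920151-134920400 and chr14:46760291-46760540, plus strand.
Cdkn1b: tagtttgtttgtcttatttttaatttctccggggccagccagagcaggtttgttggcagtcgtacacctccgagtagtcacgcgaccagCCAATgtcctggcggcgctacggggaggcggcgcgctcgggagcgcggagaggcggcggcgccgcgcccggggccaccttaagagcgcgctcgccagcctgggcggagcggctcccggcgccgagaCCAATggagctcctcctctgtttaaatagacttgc
Cdkn3: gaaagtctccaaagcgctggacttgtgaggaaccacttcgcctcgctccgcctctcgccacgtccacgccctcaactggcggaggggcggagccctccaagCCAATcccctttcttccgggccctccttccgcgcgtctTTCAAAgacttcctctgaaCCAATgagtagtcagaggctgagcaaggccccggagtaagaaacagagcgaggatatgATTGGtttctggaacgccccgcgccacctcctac

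The *Cdkn1b* window held 2 matches to CCAAT and 0 to TTTGAA, and the *Cdkn3* window held 3 and 1. Of 32851 windows of this length in the table, 33.8% hold CCAAT and 16.0% hold TTTGAA on either strand. A match describes these letters and is not a binding site. The part of such matches in the age differences was not tested. The windows of *Cdkn2c*, which also rose with age, hold bases of GENCODE exons and are not shown.

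All values below are normalized read counts, that is reads on a gene divided by the size factor of the library, and are compared within a gene. Of the members, 5 had a mean of at least 10 and were tested in every comparison. *Cdkn2a* and *Cdkn2b* did not reach it in any comparison. Tests were by limma on log2(value + 1), with adjustment over all genes tested and a threshold of 0.05. The markers of the labelled tissue were present: no gene of the apical progenitor or postmitotic neuron lists was at 0 in all libraries of a group. *Gm42418*, with ribosomal RNA sequence, took 6.11% to 34.8% of the counts. In 24 h cultures its share was 20.5% to 23.0% in mutants and 6.26% to 13.9% in controls, and the mutant libraries were deeper, with 7903426 to 11645213 reads against 4732781 to 5709443. By *Xist* and Y-linked transcripts, E14.5 mutants 1 and 2 were female and the 3 E14.5 controls male.

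*Cdkn1b* was lowest in E11.5 cortices and higher in E14.5 cortices. In E11.5 cortices it stood at 498, 519 and 462 in controls D, E and F. In the mutants A, B and C it stood at 448, 406 and 445. All 3 mutants were below all 3 controls. In E14.5 cortices it stood at 823, 801 and 777 in controls 3, 4 and 5 and at 530, 683 and 795 in mutants 1, 2 and 6. Mutant 6 overlapped the controls and mutants 1 and 2 did not. At 12 h in culture it stood at 535, 544 and 836 in controls and 600, 603 and 666 in mutants. At 24 h it stood at 759, 522 and 713 in controls and 596, 601 and 649 in mutants. The culture groups overlapped at both times. Group means ranged from 433 ± 23.3 (SD, n = 3) in E11.5 mutants to 801 ± 23.4 in E14.5 controls.

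*Cdkn1c* ran the other way and was highest in E11.5 cortices. There it stood at 2637, 2861 and 1890 in controls D, E and F and at 2820, 2403 and 2610 in mutants A, B and C. Control F was the lowest of the 6. In E14.5 cortices it stood at 1098, 1196 and 1180 in controls and 1224, 1394 and 1406 in mutants. All 3 mutants were above all 3 controls. After 12 h in culture it stood at 798, 654 and 1202 in controls 3, 4 and 5 and at 980, 1111 and 1612 in mutants 1, 2 and 6. Control 5 and mutant 6 were the highest of their genotype. After 24 h it stood at 913, 644 and 904 in controls and at 822, 1087 and 1056 in mutants. The groups overlapped in both cultures.

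Of the INK4 genes, *Cdkn2c* (p18Ink4c) was highest in E14.5 cortices and lowest in 24 h cultures. At E11.5 it stood at 54.4, 28.4 and 59.1 in controls and 67.1, 52.4 and 49.0 in mutants. At E14.5 it stood at 74.1, 92.9 and 83.7 in controls and 88.1, 103 and 85.3 in mutants. The 6 E14.5 cortices were above the 6 E11.5 cortices. In 12 h cultures it stood at 17.3, 36.4 and 36.4 in controls and 28.3, 47.4 and 59.1 in mutants. In 24 h cultures it stood at 20.5, 18.5 and 17.5 in controls and 25.8, 31.4 and 18.3 in mutants. Mutants and controls overlapped in all 4 conditions.

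*Cdkn2d* (p19Ink4d) had a median of 164 in E11.5 and 174 in E14.5 cortices, and its ranges overlapped between the ages. At E11.5 it stood at 196, 150 and 166 in controls and 192, 138 and 162 in mutants. At E14.5 it stood at 219, 238 and 180 in controls 3, 4 and 5 and at 133, 134 and 168 in mutants 1, 2 and 6. All 3 mutants were below all 3 controls there. In 12 h cultures it stood at 97.5, 110 and 208 in controls 3, 4 and 5 and at 109, 81.0 and 265 in mutants 1, 2 and 6. Control 5 and mutant 6 again stood above the other 4. In 24 h cultures it stood at 212, 104 and 168 in controls and 198, 102 and 178 in mutants, which overlapped.

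*Cdkn3*, the CDK phosphatase, was highest and least variable in E11.5 cortices. There it stood at 93.7, 93.7 and 106 in controls and 101, 95.9 and 88.7 in mutants. At E14.5 it stood at 47.1, 36.3 and 44.5 in controls and at 70.0, 22.1 and 54.0 in mutants 1, 2 and 6. The E14.5 mutants lay on both sides of the controls. In 12 h cultures it stood at 3.15, 4.70 and 33.4 in controls and 14.6, 31.6 and 19.7 in mutants. In 24 h cultures it stood at 21.8, 13.5 and 22.5 in controls and at 45.9, 8.10 and 88.2 in mutants 1, 2 and 6. The coefficient of variation was 7.54% and 6.32% in E11.5 controls and mutants, 124% in 12 h controls and 84.6% in 24 h mutants. The plot of values by library shows the 5 genes.

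**Figure D1:**
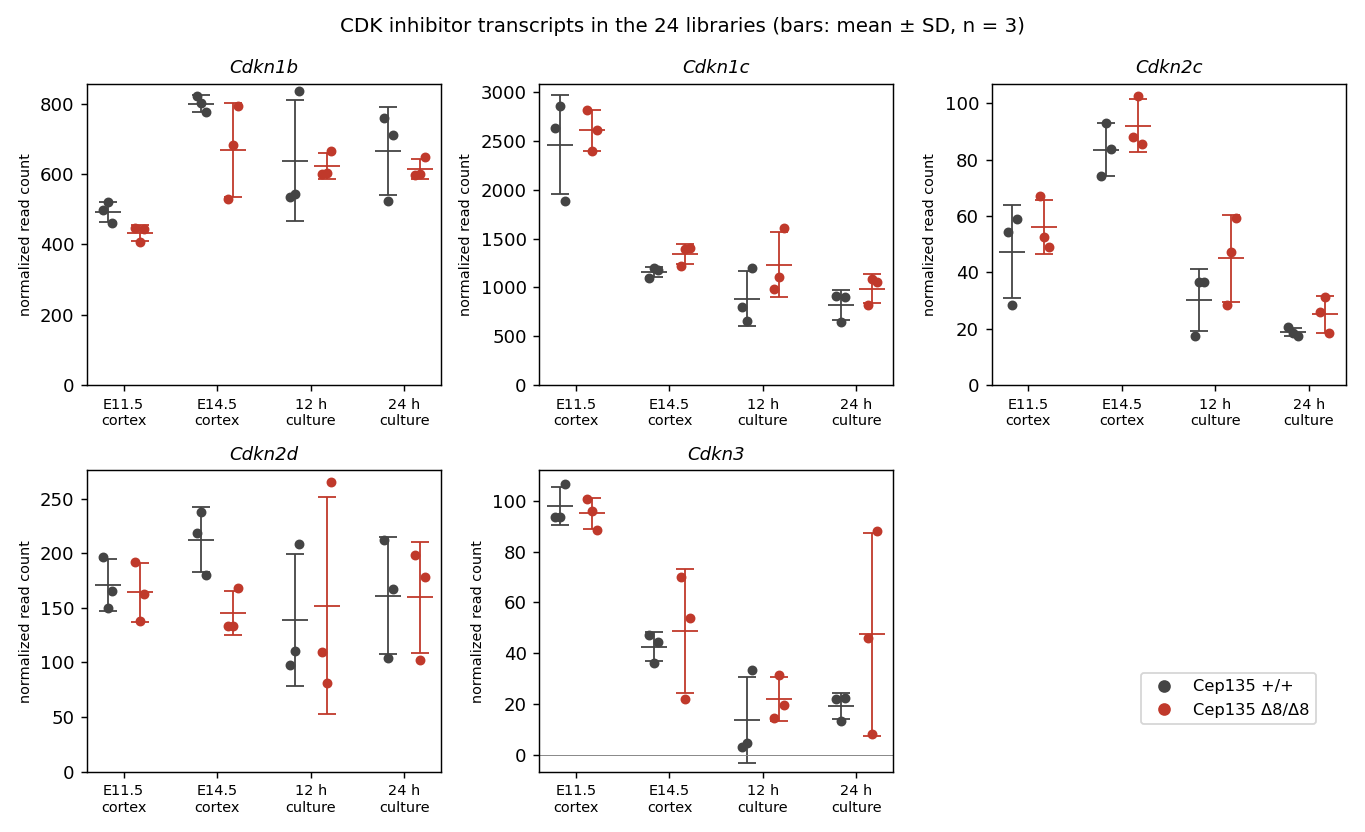
Normalized read count (vertical axis, linear) of 5 CDK inhibitor genes in 4 conditions; each point is 1 library, grey for *Cep135*(+/+) and red for *Cep135*(Δ8/Δ8), and bars give the mean ± SD of 3. *Cdkn1c* and *Cdkn3* are highest at E11.5, where the lowest libraries stood at 1890 and 88.7, while *Cdkn1b* and *Cdkn2c* are higher at E14.5.

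The 2 neighbouring INK4 genes were near the limit of detection. *Cdkn2a*, which encodes p16Ink4a and p19Arf, stood at 0, 0.836 and 3.11 in E11.5 controls and at 0, 4.46 and 0.721 in E11.5 mutants. At E14.5 it stood at 0, 0 and 1.74 in controls and 0, 1.10 and 1.57 in mutants. In 12 h cultures it stood at 1.57, 2.35 and 1.52 in controls and 0.975, 3.16 and 0 in mutants. Its highest values, 6.98 in mutant 6 and 6.25 in control 5, were in 24 h cultures, where the other 4 libraries ranged from 0 to 4.10.

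*Cdkn2b* (p15Ink4b) was listed at 0 in all 3 E14.5 mutants and reached 3.63 in E14.5 controls. In E11.5 cortices it ranged from 0 to 3.02. In 12 h cultures it ranged from 0 to 14.1, the highest value being that of control 4. In 24 h cultures it stood at 2.73, 0 and 2.50 in controls and at 6.45, 8.10 and 3.49 in mutants. These were 2, 0 and 2 reads in controls, under the limit of 3 reads, and 9, 8 and 4 reads in the deeper mutant libraries, and no test is given. A count of 0 allows up to 3 reads, which is a normalized read count of 1.94 to 5.06 depending on the library. Most values of both genes were at or under this limit. This limit covers counting error alone. The plot of the pair shows them.

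**Figure D2:**
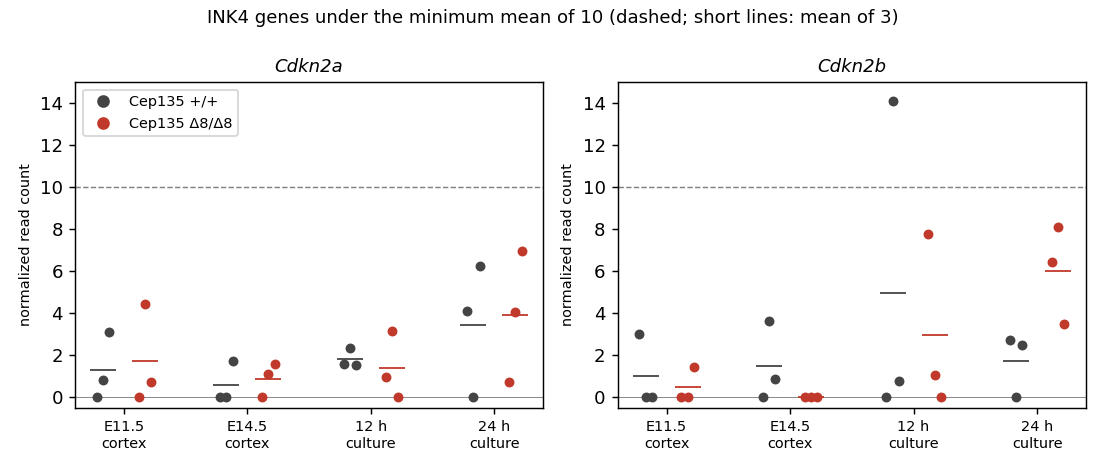
Normalized read count (linear axis) of *Cdkn2a* and *Cdkn2b* in 4 conditions; points are libraries, short lines the means of 3, and the dashed line the minimum mean of 10 for testing. Only 1 library, the 12 h culture of control 4 at 14.1 for *Cdkn2b*, is above the dashed line.

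Age was the comparison in which most of these genes differed. Between E11.5 and E14.5, *Cdkn1b* and *Cdkn2c* rose and *Cdkn1c* and *Cdkn3* fell, 4 of the 5 tested. In that comparison 53.1% of all 13650 genes tested passed. The medians moved from 455 (range 406 to 519, n = 6) to 786 (530 to 823) for *Cdkn1b*. The fold change was 1.57 (95% interval 1.37 to 1.81), a log2 difference of 0.65 (standard error 0.09, adjusted p = 2.18e-05 by limma). *Cdkn2c* rose from a median of 53.4 (28.4 to 67.1) to 86.7 (74.1 to 103), a log2 difference of 0.79 (standard error 0.17, adjusted p = 0.00110 by limma).

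*Cdkn1c* fell from a median of 2624 (1890 to 2861) to 1210 (1098 to 1406). The log2 difference was -1.01 (standard error 0.10, adjusted p = 3.01e-07 by limma), a fold of 0.495. *Cdkn3* fell from a median of 94.8 (88.7 to 106) to 45.8 (22.1 to 70.0). The log2 difference was -1.14 (standard error 0.21, adjusted p = 2.76e-04 by limma). With all 24 libraries in one fit this call was lost (adjusted p = 0.0532), at the upper end of the range of 5.67e-05 to 0.0532 over all settings tried. For all 4 genes the ranges of the 2 ages did not overlap within either genotype, and the exact permutation p within genotype was 0.005, the smallest possible with 400 arrangements. *Cdkn2d* stood at a log2 difference of 0.07 (standard error 0.13, adjusted p = 0.685 by limma), and its 95% interval allowed a fold of 0.863 to 1.28.

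The partners of these inhibitors also differed with age. Of 12 CDK and cyclin genes, 10 fell and 2 rose, with a median log2 difference of -1.12 against -0.08 over all genes. Log2 differences were -2.91 for *Ccnd1* (cyclin D1), -1.76 for *Ccnd3* (cyclin D3) and -1.63 for *Ccne1* (cyclin E1), while *Ccnd2* and *Cdk6* rose by 0.48 and 0.41. Of 11 Rb and E2F genes, 9 fell, among them *E2f7* (-1.23), and *Rbl2* and *Rb1* rose by 0.82 and 0.45. *Skp2* and *Cks1b*, which direct p27Kip1 to degradation, fell (adjusted p = 1.08e-07 and 6.23e-05 by limma), and the other 3 of 5 members of the ligase list did not pass. Of 9 Polycomb genes tested, which repress the *Cdkn2a* locus, 3 fell (*Cbx2*, *Eed* and *Ring1*) and 2 rose (*Cbx8* and *Pcgf2*). Of 6 tested neighbours of *Cdkn1c* in its imprinted cluster, 4 fell: *H19* (-1.59), *Igf2* (-0.99), *Nap1l4* (-0.23) and *Tssc4* (-0.28).

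Cell type markers moved with age too. All 8 postmitotic neuron markers rose, their summed level going from 8884 to 13722 at E11.5 to 30791 to 40835 at E14.5. Of 8 apical progenitor markers, 6 fell and 2 rose. All 10 mitotic genes fell, their sum going from 23403 to 27221 down to 11510 to 18583. The summed erythroid level went from 51350 to 82673 down to 38256 to 45371. That of intermediate progenitors went from 3413 to 4712 up to 6621 to 7588. The meninges level overlapped between the ages (1963 to 7868, then 1529 to 2571). So did microglia (284 to 616, then 435 to 994) and liver markers (118 to 1029, then 742 to 7400). Endothelium and choroid plexus levels overlapped too. *Ttr* is counted in both the liver and the choroid plexus lists. *Alb*, *Serpina1a*, *Serpina1e* and *Fgb* of the liver list were at 0 in all E11.5 controls and all E14.5 mutants. In bulk tissue, fewer cells of a type and less RNA per cell cannot be told apart, and the part of these cell types in the result was not tested.

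From E14.5 cortices to 12 h cultures, *Cdkn2c* and *Cdkn3* fell in level, 2 of the 5 tested, where 30.2% of all 13601 genes tested passed. *Cdkn2c* fell in 6 of 6 embryos, from a median of 86.7 to 36.4 (17.3 to 59.1). The log2 difference was -1.30 (standard error 0.25, adjusted p = 0.00107 by limma), a fold of 0.407 with a 95% interval of 0.283 to 0.587. An exact sign-flip permutation test over embryos gave p = 0.0313, the smallest possible. *Cdkn3* fell in 5 of 6 embryos, from a median of 45.8 to 17.2 (3.15 to 33.4). The log2 difference was -1.62 (standard error 0.49, adjusted p = 0.0203 by limma), and the exact sign-flip permutation p was 0.0938. The embryo whose value did not fall was mutant 2, at 22.1 in cortex and 31.6 in culture.

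The other 3 tested genes did not pass. The log2 difference was -0.22 (standard error 0.13, adjusted p = 0.208) for *Cdkn1b*, -0.29 (0.15, 0.141) for *Cdkn1c* and -0.40 (0.26, 0.261) for *Cdkn2d*, by limma. Each was lower in 4 of 6 embryos. Without the 12 h library of mutant 6, *Cdkn1c* (-0.40, adjusted p = 0.0242) and *Cdkn2d* (-0.65, adjusted p = 0.0151) also passed, which gave 4 called genes. Over all settings tried, their adjusted p ranged from 0.0242 to 0.308 and from 0.0151 to 0.527.

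In the same comparison *Ccnd1* rose by 0.69 and *Ccnd2* (-0.80), *Ccnb2* (-1.63) and *Ccna2* (-0.61) fell, 4 called of 12 CDK and cyclin genes. *E2f1* rose by 0.72 and was the one gene of 11 in the Rb and E2F list that passed. Of the ligase list *Skp1a* (-0.42) and *Cks1b* (-0.64) fell, and 0 of 9 Polycomb genes passed. Of 5 tested imprinted neighbours of *Cdkn1c*, *H19* fell by 2.93 and *Kcnq1ot1* rose by 1.11. Of 10 mitotic genes 5 fell, among them *Cdc20* by 1.08 and *Top2a* by 0.49.

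Markers of other cell types moved strongly. All 7 tested microglia markers, all 8 endothelium and pericyte markers and all 6 meninges markers fell. The summed microglia level was 435 to 994 in E14.5 cortices and 6.31 to 44.0 in 12 h cultures, where *Trem2* was at 0 in both genotypes. That of endothelium and pericytes was 1118 to 1356 and then 33.4 to 140. Of 8 apical progenitor markers 6 fell, *Hes5* by 4.23, and *Vim* rose by 0.88. Of 9 erythroid markers 8 rose. Their part in the fall of *Cdkn2c* and *Cdkn3* was not tested.

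From 12 h to 24 h in culture 0 of the 5 tested genes passed by limma, and edgeR and DESeq2 also called 0, where 0.292% of all genes passed by limma. An unadjusted p under 0.05 was found for 1 of the 5 and for 9.64% of all genes. The gene with the small p was *Cdkn2c*, lower in 5 of 6 embryos, with a log2 difference of -0.68 (standard error 0.32, adjusted p = 0.516 by limma, 95% interval -1.35 to -0.0025). *Cdkn3* stood at 0.85 (standard error 0.58) and *Cdkn2d* at 0.22 (0.28). *Cdkn1b* and *Cdkn1c* stood at 0.03 (0.12) and -0.19 (0.15), and each was lower in 5 of 6 embryos. For *Cdkn1b*, mutants 1 and 2 hardly moved (600 to 596 and 603 to 601), and control 3 rose from 535 to 759. *Cdkn2d* was lower in 3 of 6 and *Cdkn3* in 2 of 6. The plots of state effects and of embryos show these comparisons.

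**Figure D3:**
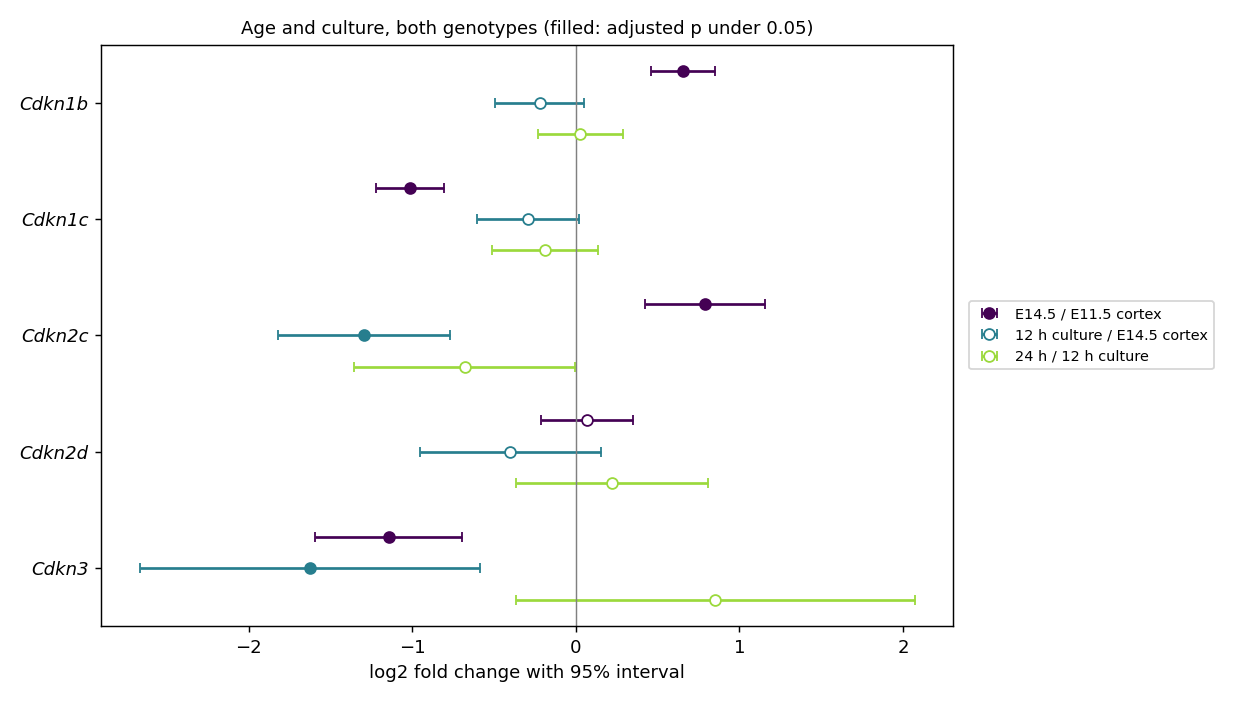
Log2 fold change (horizontal axis, with 95% interval from limma) for 5 genes between E11.5 and E14.5 cortices, E14.5 cortices and 12 h cultures, and 12 h and 24 h cultures; filled points have an adjusted p under 0.05. The filled points are the 4 age effects and the 2 culture effects, and *Cdkn2c* is 0.79 for age and -1.30 for culture.

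**Figure D4:**
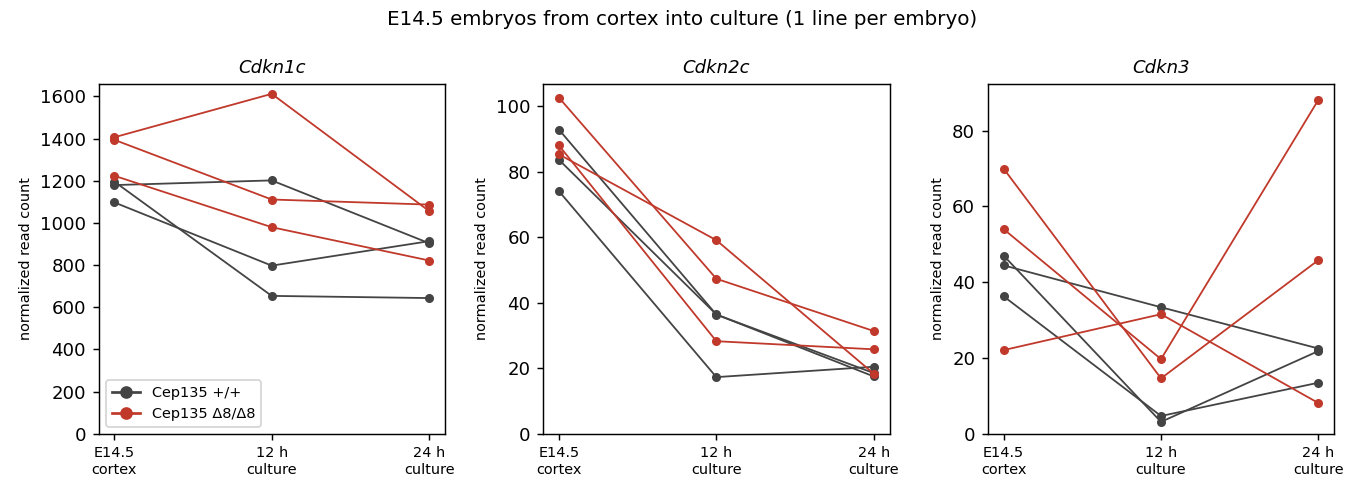
Normalized read count (linear axis) of *Cdkn1c*, *Cdkn2c* and *Cdkn3* in the cortex, 12 h culture and 24 h culture of the 6 E14.5 embryos, 1 line per embryo, grey for *Cep135*(+/+) and red for *Cep135*(Δ8/Δ8). *Cdkn2c* falls in 6 of 6 embryos from cortex to 12 h, and *Cdkn3* spreads from 8.10 to 88.2 among the mutants at 24 h.

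Between genotypes, 0 of the 5 tested genes passed in any comparison. Limma called 0 in E11.5 cortices (0.0149% of all genes passed), E14.5 cortices (0.0736%), 12 h cultures (0%), 24 h cultures (0.271%) and the 12 cortices with age as a term (0.139%). At an unadjusted p under 0.05 the counts were 0, 1, 0, 0 and 2 of 5, where 7.39%, 9.1%, 4.85%, 10.6% and 8.71% of all genes had one, and edgeR and DESeq2 called 0 in the 3 comparisons at E14.5 and in culture. For 12 h cultures, 650 of 13389 genes had an unadjusted p under 0.05, and edgeR called 0 and DESeq2 9.

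The smallest p was that of *Cdkn2d* in E14.5 cortices, 145 ± 20.2 (SD, n = 3) in mutants and 212 ± 29.8 in controls. The log2 difference was -0.54 (standard error 0.17, adjusted p = 0.451 by limma), a fold of 0.686 with a 95% interval of 0.528 to 0.891, and the exact permutation p was 0.1, the smallest possible. With a term for sex it was -0.32, which rests on mutant 6 alone against the controls, since the other mutants were female and the controls male. The summed postmitotic neuron level was 30791 to 33434 in these mutants and 38114 to 40835 in the controls, and the microglia level 815 to 994 and 435 to 501, without overlap; their part in the difference was not tested. In those lists *Neurod6* was lower in E14.5 mutants (-0.87, adjusted p = 0.0481 by limma) and *Cx3cr1* was higher (1.12, adjusted p = 0.0269 by limma). *Cdkn1b* had a log2 difference of -0.19 (standard error 0.11) at E11.5, -0.28 (0.15) at E14.5 and -0.23 (0.09) over the 12 cortices. The last had p = 0.0242 and an adjusted p of 0.486 by limma, and an exact permutation p of 0.01 within age. This permutation took no account of sex. Over all settings tried, a term for sex among them, *Cdkn1b* ranged from -0.23 to -0.14 at E11.5. Over the 12 cortices it ranged from -0.29 to -0.16. At E14.5 the *Cdkn1b* value with a term for sex was -0.01, which again rests on mutant 6 alone against the controls. *Cdkn2d* over the 12 cortices stood at -0.30 (standard error 0.13, adjusted p = 0.526 by limma), with an exact permutation p of 0.06 within age.

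*Cdkn1c* stood at 0.21 (standard error 0.12, adjusted p = 0.608) in E14.5 cortices, 0.49 (0.24, 0.913) in 12 h cultures and 0.28 (0.16, 0.588) in 24 h cultures. The 95% interval of the fold at 12 h was 0.989 to 2.01. *Cdkn2c* ranged from 0.14 to 0.58 over the 4 conditions with standard errors of 0.18 to 0.52. *Cdkn3* ranged from -0.04 to 1.23 with standard errors of 0.16 to 0.94, and its interval at 12 h, a fold of 0.576 to 9.58, was the widest. In E11.5 cortices the 95% interval of the fold was 0.851 to 1.36 for *Cdkn1c*, 0.742 to 1.24 for *Cdkn2d* and 0.764 to 1.23 for *Cdkn3*. The plot of genotype effects shows the 20 values.

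**Figure D5:**
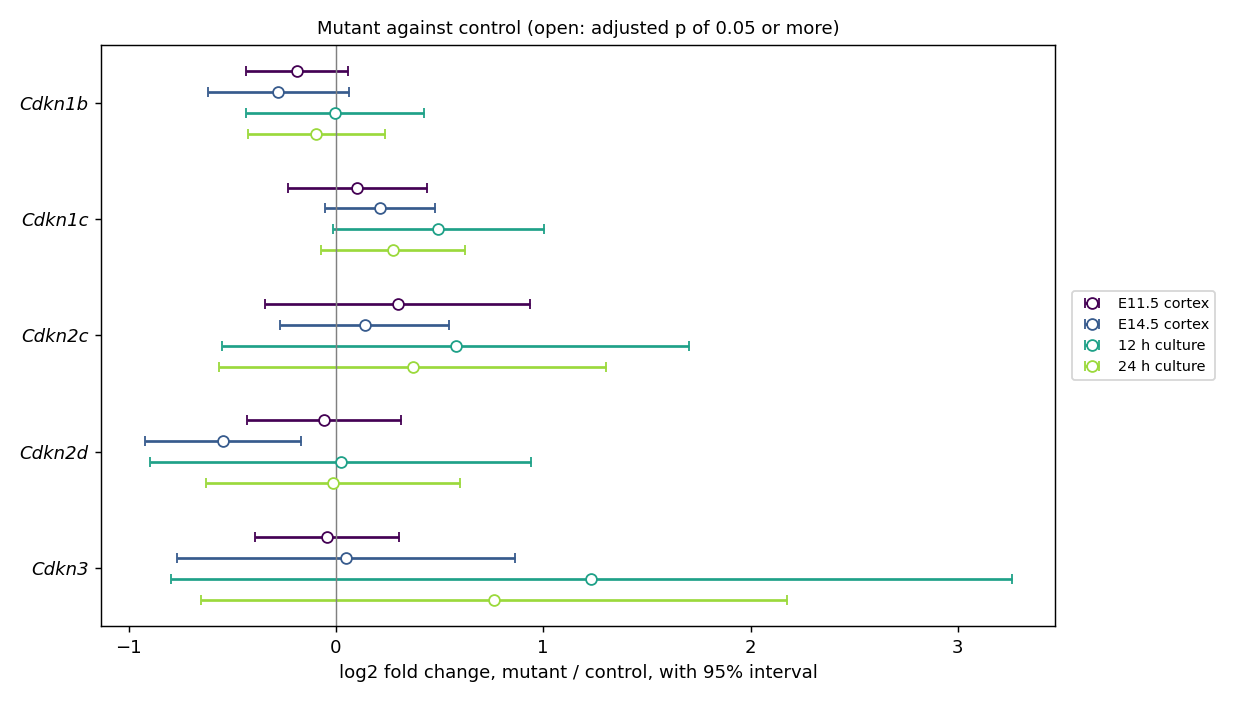
Log2 fold change of *Cep135*(Δ8/Δ8) over *Cep135*(+/+) (horizontal axis, with 95% interval from limma) for 5 genes in 4 conditions; open points have an adjusted p of 0.05 or more. All 20 points are open, and the interval of *Cdkn2d* at E14.5 (-0.54) does not reach 0.

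Mutants and controls did not overlap for 1 of 5 tested genes at E11.5, *Cdkn1b*, where 13.3% of all genes did not overlap. At E14.5 they did not overlap for 2 of 5, *Cdkn1c* and *Cdkn2d*, against 13.7% of all genes. In 12 h and 24 h cultures they did not overlap for 0 of 5, against 11% and 16.2%. The genotype effect was also compared between conditions. The difference between ages, between 12 h cultures and E14.5 cortices, and between 24 h and 12 h cultures passed for 0 of 5 genes by limma, where 0% of all genes passed in each and 0 of the 5 had an unadjusted p under 0.05 (7.84%, 5.32% and 2.38% of all genes). By edgeR and DESeq2 0 of 5 passed where they were run. The smallest p of these was that of *Cdkn2d* between ages, -0.49 (standard error 0.24, adjusted p = 0.624 by limma).

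Within the same genotype comparisons the lists of partners showed 0 called genes: CDK and cyclin genes, Rb and E2F genes, the ligase, Polycomb and imprinted lists had 0 in each of the 4 conditions and over the 12 cortices by limma. At an unadjusted p under 0.05 the counts over these lists, in that order, were 1, 1, 0, 1 and 0 at E11.5, 1, 5, 0, 1 and 1 at E14.5, 0 in each at 12 h, and 4, 0, 0, 2 and 2 at 24 h. Over the 12 cortices they were 2, 3, 0, 1 and 1. Over all genes the shares were 7.39% at E11.5, 9.1% at E14.5, 4.85% at 12 h, 10.6% at 24 h and 8.71% over the 12 cortices, and the lists hold 12, 11, 5, 9 and 5 or 6 genes tested. The 24 h mutants also had higher *Ttr*, *Alb*, *Serpina1e* and *Clic6*, markers of choroid plexus or liver, and lower *Neurod6*, a neuronal marker. At 12 h the summed choroid plexus and cortical hem level was 4900 to 16407 in mutants and 1168 to 3903 in controls. No gene of that list passed there by limma, and its part in the member values was not tested. At E14.5 mitotic genes summed to 14890 to 18583 in mutants and 11510 to 14742 in controls, without overlap, and 0 of 10 passed by limma (3 at an unadjusted p under 0.05). Sums of the Rb and E2F list (1995 to 2157 in mutants, 1681 to 1805 in controls) did not overlap either. Nor did those of intermediate progenitors (6621 to 6921 in mutants, 7197 to 7588 in controls). The Rb and E2F sums also did not overlap at E11.5 (3031 to 3244 in mutants, 2794 to 3014 in controls) and at 24 h (1656 to 1873 and 1464 to 1580). At 24 h CDK and cyclin sums (23132.5 to 24794.7 in mutants, 17551.5 to 22015.1 in controls) did not overlap. Mitotic (7795 to 8806 and 6222 to 7786) and Polycomb sums (7386 to 8107 and 8256 to 9124) did not overlap there either, and ligase and imprinted sums did. Apical progenitor sums (12078.9 to 13277.5 in mutants, 9388.84 to 10593 in controls) also did not overlap at 24 h. Postmitotic neuron sums (30773.5 to 35285.9 in mutants, 38607.4 to 43164.6 in controls) did not overlap there either. Of all single genes, 13.3% did not overlap at E11.5, 13.7% at E14.5 and 16.2% at 24 h.

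*Cdkn1a*, the remaining Cip/Kip gene, was 159 to 281 in E11.5 controls and 466 to 554 in mutants. In E14.5 cortices it was 222 to 358 in controls and 443 to 634 in mutants. At 12 h it was 695 to 950 in controls and 984 to 1791 in mutants. At 24 h it was 920 to 1348 in controls and 2158 to 2248 in mutants. Its genotype log2 difference was 1.16 at E11.5, 0.83 at E14.5, 0.80 at 12 h and 1.02 at 24 h, with adjusted p of 0.197, 0.310, 0.913 and 0.0109 by limma, so only the last of these 4 passed. Over the 12 cortices it was 0.99 (adjusted p = 0.0152 by limma). All mutants were above all controls in each of the 4 conditions. Of all genes, 13.3%, 13.7%, 11% and 16.2% did not overlap there. The paper, which used DESeq2, names *Cdkn1a* among the genes most raised in the mutant samples. *Cep135* itself stood at 246 to 375 in E11.5 cortices, and its genotypes overlapped in all 4 conditions, which does not check the deletion, since 3′ reads do not show it.

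Over the 24 libraries, the genes whose log2 level was most like that of each member differed. For *Cdkn1b* they were *Smim14*, *Gm17750* and *Sdc3*, with Pearson r of 0.908, 0.900 and 0.893 among 13677 other genes. For *Cdkn1c* they were *Kif20a*, a mitotic kinesin, *Fam162a* and *P4hb*, with r of 0.949, 0.945 and 0.945. For *Cdkn2c* they were *Flrt1*, *A930004D18Rik* and *Slc25a17*, with r of 0.892, 0.881 and 0.879.

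For *Cdkn2d* they were *Bod1*, *Tmsb4x* and *Ppp1cb*, with r of 0.921, 0.891 and 0.887. For *Cdkn3* they were *Fam57a*, *Dusp28* and *Sox13*, with r of 0.912, 0.878 and 0.865. These r are descriptions, and the libraries share embryos, conditions and size factors. With the deviations from the 8 group means, r was 0.740, 0.754 and 0.845 for the *Cdkn1b* genes and 0.594, 0.829 and 0.750 for the *Cdkn1c* genes. It was 0.925, 0.885 and 0.907 for the *Cdkn2d* genes, 0.410, 0.698 and 0.622 for the *Cdkn2c* genes and 0.792, 0.651 and 0.621 for the *Cdkn3* genes.

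Among the members, *Cdkn1c* and *Cdkn1b* had an r of -0.46 over the 24 libraries and 0.76 in the deviations from group means. *Cdkn1c* and *Cdkn3* had 0.74 and 0.28. Against the mean log2 level of the 10 mitotic genes, r was 0.93 for *Cdkn1c*, 0.75 for *Cdkn3*, 0.58 for *Cdkn2c*, 0.19 for *Cdkn2d* and -0.55 for *Cdkn1b*. In the deviations it was 0.23, 0.45, 0.55, 0.30 and 0.32. These are descriptions over libraries that share condition and depth.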

How the data were processed

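Dorsal telencephalon and cultured cells of *Cep135* embryos were profiled by 3′ RNA sequencing. The authors removed adapters and polyA tails, aligned the reads to GRCm38 with TopHat 2.0.10 (Bowtie 1.0.0, SAMtools 0.1.19), counted them per gene by strand with HTSeq-count 0.6.1 on GENCODE vM20, and deposited 1 table of signal, which holds counts divided by 1 size factor per library. Replicates were not pooled. In every library 100% of values were whole to within 0.01 read, and whole reads were used for 23 of 24. E11.5 control D was left out of the tests on whole reads by a rule. The value of 1 read there, 1.01, was near 1. Gene positions came from GENCODE vM21.

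Limma 3.58.1 (R 4.3.3, trend) was run on log2(value + 1) of genes averaging 10 or more across the libraries of a comparison, and p-values were adjusted over all these genes by Benjamini-Hochberg. Fold changes are on the log2(value + 1) scale, which understates changes of low genes. Only the groups compared entered a fit. Intervals are 95%. Exact permutation tests were two-sided. Same-numbered cortex and cultures were taken as the same embryo, by the labels. Deviations of 18 same-embryo pairs correlated at -0.114 to 0.235, median 0.137. This does not test the labels, since pairs of different embryos were not compared. The steps were tested on simulated counts. Genes named are the 7 members, *Cdkn1a*, *Cep135*, the 3 genes most like each member, and some of the called genes of the lists. Not every called gene of a list is named. *Ccnd2*, *Cdk6*, *Rb1* and *Gm42418* were named after their values were seen. The members and lists were chosen with earlier results of these data known.

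Alternatives were a pseudocount of 0.1 or of 5, omitting the low-value filter or raising it to 50, quantile and total scaling, one fit of all libraries, edgeR 4.0.16 and DESeq2 1.42.0 on whole reads, terms for sex or the title prefix, a replicate block and leaving out each library.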

Additional observations from a re-analysis of the deposited data

How the results depend on the processing

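The 5 members tested were called or not called alike under nearly all alternatives. Of the members' log2 differences recomputed with another setting, 488 kept their direction and their side of the threshold, 10 changed sign and 1, the age difference of *Cdkn3* with all 24 libraries in one fit, lost its call (-1.14, adjusted p = 0.0532 by limma). With the filter on a mean of at least 50, 1 member was called between E14.5 cortex and 12 h culture, because *Cdkn3* falls under that filter, and 2 to 4 were called when 1 library was left out, 4 being without 12 h culture mutant replicate 6. The sign of *Cdkn1b* in 12 h cultures changed with quantile scaling (0.013), total scaling (0.046) and a term for sex (0.095). That of *Cdkn2d* in 24 h cultures changed with total scaling (0.054) and sex (0.20), of *Cdkn2c* there with sex (-0.035), and of *Cdkn3* over the 12 cortices with quantile (-0.00443) and total (-0.00855) scaling. In the cultures each value with a term for sex rests on mutant 6 alone against the controls. The difference for *Cdkn3* between 24 h and 12 h cultures was 0.73 by edgeR and 0.69 by DESeq2, against -0.47 by limma. The cause was not tested. None of the values that changed sign passed the threshold.

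With the replicate block, the embryo as a paired term, 2 members were called between cortex and culture, as without it, and it changed no call. EdgeR and DESeq2 were not run where E11.5 libraries entered.

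Leaving out 1 library changed the sign of 19 member values, none of which passed the threshold. The range of log2 differences is given. For the genotype effect in E11.5 cortices it was -0.076 to 0.22 for *Cdkn1c*, -0.026 to 0.49 for *Cdkn2c*, -0.18 to 0.059 for *Cdkn2d*, -0.083 to 0.019 for *Cdkn3*. For the genotype effect in E14.5 cortices it was -0.28 to 0.53 for *Cdkn3*. For the genotype effect in 12 h cultures it was -0.12 to 0.21 for *Cdkn1b*, -0.47 to 0.38 for *Cdkn2d*. For the genotype effect in 24 h cultures it was -0.26 to 0.011 for *Cdkn1b*, -0.29 to 0.28 for *Cdkn2d*. For the genotype effect over the 12 cortices it was -0.15 to 0.21 for *Cdkn3*. For the change from 12 h to 24 h it was -0.027 to 0.12 for *Cdkn1b*. For the difference of the genotype effect between ages it was -0.22 to 0.068 for *Cdkn1b*, -0.012 to 0.29 for *Cdkn1c*, -0.35 to 0.16 for *Cdkn2c*, -0.24 to 0.57 for *Cdkn3*. For the difference of the genotype effect between 24 h and 12 h cultures it was -0.30 to 0.022 for *Cdkn1b*, -0.50 to 0.14 for *Cdkn2c*, -0.39 to 0.46 for *Cdkn2d*, -1.41 to 0.47 for *Cdkn3*.

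Depth limits *Cdkn2a* and *Cdkn2b*, with 0 to 12 reads in a library, and *Cdkn3* in 12 h cultures, with 2 to 44 reads. With 3 embryos a group, an exact permutation p of 0.1 is the smallest possible.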
